A study of Homo sapiens with 12 samples.

Results

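Of 15407 genes that passed a filter on low counts, 3391 (22%) had all 6 libraries of the LNCaP derivatives MR49F and C4-2 on the same side of all 3 LNCaP libraries. They comprised 1737 genes above LNCaP and 1654 below it, so that 51.2% were above. With library size alone as the scaling, 35.9% of the genes that met the rule were above, and the median gene moved by -0.08 on the log2 scale. Members were chosen by their CPM, read counts scaled to the size of each library, after TMM scaling, a method that sets the bulk of genes in each library to a common level. A gene belonged to the set when its lowest derivative library exceeded its highest LNCaP library, or its highest derivative library lay under its lowest LNCaP library. Levels in derivatives and in LNCaP therefore chose the genes, and the differences from LNCaP below are descriptions with no test. In the whole table of 57992 entries the rule held for 3877, of which 486 (241 above and 245 below) had too few counts to pass the filter and are not described further.

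LNCaP is an androgen-responsive line from a lymph node metastasis of a prostate adenocarcinoma, grown here as the parental, enzalutamide-sensitive line per the labels. MR49F is an enzalutamide-resistant derivative of LNCaP, and the labels give it as resistant. C4-2 is a castration-resistant subline of LNCaP that the labels give as sensitive to enzalutamide, an antiandrogen that blocks the androgen receptor. Prostate luminal cells depend on that receptor, which drives secreted proteases such as PSA and enzymes of lipid and secretory metabolism. Long passage under androgen deprivation or antiandrogen selects sublines that grow with little androgen, and such sublines can differ from the parent both in copy number and in gene regulation. The series title names Notch signalling, a pathway in which a ligand on a neighbouring cell releases the receptor's intracellular part to act in the nucleus.

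Poly(A) RNA was sequenced from 3 biological replicates of MR49F, 3 of C4-2 and 3 of LNCaP. Each line is 1 derived culture line, so its replicates describe the spread between cultures of that line. Which differences belong to castration resistance, to drug exposure or to long separate culture cannot be told apart with 1 line of each kind. A further resistant line of the series, C4-2R, was not analysed here. No treatment was given in the labels for any of the 9 libraries.

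Total counts per library were 6990461 to 42770072. C4-2 replicate 1 was the deepest, and the other 8 libraries held at most 9375912 counts. Within lines, replicates differed by more than counting noise (chi-square per degree of freedom 1.51 to 21.3). Without that library 1979 genes lay above LNCaP and 1880 below, where 1 library fewer also makes the rule easier to meet. When its counts were thinned to 17.6%, 3337 genes met the rule and 3269 of them were in the set found with all its counts. All 10 markers of prostate luminal cells exceeded 1 CPM, and their summed level was 9175 to 9433 CPM in MR49F, 7272 to 8364 CPM in C4-2 and 5933 to 6089 CPM in LNCaP. Of 6 immune markers, none reached 1 CPM in any line, and the fibroblast marker sum was 7.15 to 8.67 CPM in MR49F, 20.4 to 25.8 CPM in C4-2 and 26.0 to 29.5 CPM in LNCaP. In these bulk libraries, fewer cells of a type and less RNA per cell cannot be told apart.

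Fewer genes set both derivatives apart from LNCaP than set either derivative apart from the other lines. By the same rule applied to MR49F, 5689 genes (36.9%) had all MR49F libraries above or below those of both other lines, and for C4-2 this number was 5488 (35.6%), against 3391 (22%) for LNCaP. These counts compare 3 libraries with 6 in each case. Among the genes above LNCaP, 411 (2.67% of all tested genes) were at least 2-fold higher in both derivatives, 168 at least 4-fold and 84 at least 8-fold. Among those below, 223 (1.45%) were at least 2-fold lower in both, 69 at least 4-fold and 35 at least 8-fold. The median of the smaller of the differences of the derivative lines was 0.46 on the log2 scale above LNCaP and -0.40 below, so most of the set lay close to LNCaP. At the edge of the rule, BYSL, a ribosome biogenesis factor, was just inside with 32.39 CPM in its lowest derivative library and 32.38 CPM in its highest LNCaP library. HAPSTR1, with 84.52 CPM in C4-2 replicate 2 and 84.53 CPM in LNCaP replicate 2, was just inside below. TSTD1 missed the upper side at 20.90 CPM in both MR49F replicate 2 and LNCaP replicate 2, and the peroxisomal enzyme HSD17B4 missed the lower side at 356.4 CPM in both MR49F replicate 2 and LNCaP replicate 2. When a gap of at least 1.5-fold between the nearest libraries was asked for, 379 genes lay above and 243 below.

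Among genes with at least 10 CPM in each derivative, those furthest above LNCaP were close to silent in LNCaP. TRIB2 (ENSG00000071575, GRCh38 chromosome 2, 12716889 to 12742734), a pseudokinase that steers protein degradation, had 9.63, 10.3 and 10.6 CPM in MR49F and 33.6, 34.2 and 37.8 CPM in C4-2, against 0, 0 and 0.138 CPM in LNCaP. The 3 LNCaP libraries held a single TRIB2 count between them, and all C4-2 libraries lay above all MR49F libraries. The ratio of pooled, depth-scaled counts was 259 for MR49F over LNCaP (95% interval 46.0 to 10256, counting error only) and 870 for C4-2 over LNCaP (156 to 34368). NNT (ENSG00000112992, chromosome 5, 43602692 to 43707405), the mitochondrial transhydrogenase that makes NADPH from the proton gradient, had 37.9, 38.6 and 43.5 CPM in MR49F and 23.8, 31.6 and 25.6 CPM in C4-2, against 0.107, 0.227 and 0.276 CPM in LNCaP. Every derivative library was far above LNCaP, and the joint log2 fold change, the mean of the differences of both lines from LNCaP, was 7.30 (SE 0.25). GRIN3A (ENSG00000198785, chromosome 9, 101569353 to 101738580), a glutamate receptor subunit, had 104, 107 and 109 CPM in MR49F and 40.3, 47.2 and 47.8 CPM in C4-2, against 1.17, 1.70 and 0.965 CPM in LNCaP. MR49F libraries lay above C4-2 libraries here (log2 difference 1.26, SE 0.093, edgeR adjusted p = 3.00e-10).

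**Figure D1:**
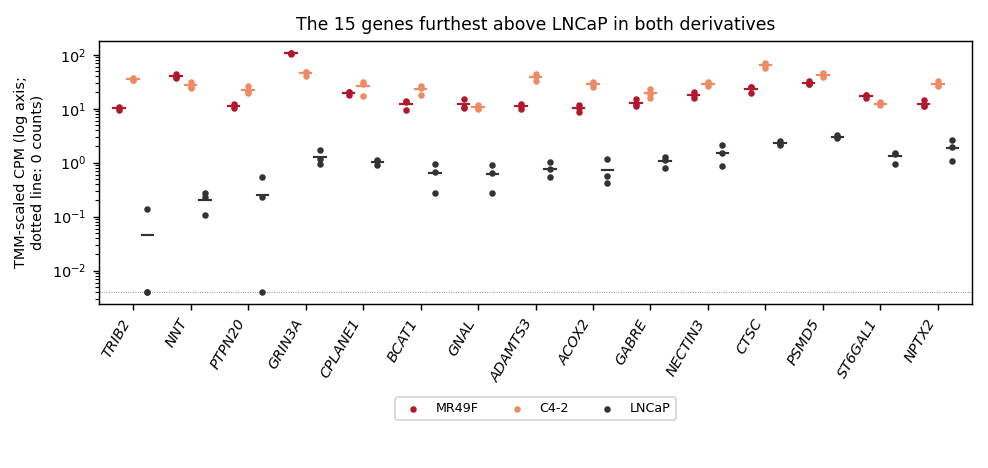
TMM-scaled CPM on a log axis of the 15 genes with the greatest shift above LNCaP in both derivatives among those averaging at least 10 CPM in each derivative, in single libraries (points) with the mean of each line (bars). Points on the dotted line had 0 counts. LNCaP means were 0.0459 CPM for TRIB2 and 3.05 CPM for PSMD5, while the lowest MR49F mean was 10.2 CPM.

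Other genes of this kind belonged to unlike classes. Enzymes among them were BCAT1, which starts the breakdown of branched-chain amino acids, ACOX2, a peroxisomal oxidase of bile acid intermediates, and ST6GAL1, which adds sialic acid to glycoproteins. BCAT1 had 9.52, 13.3 and 13.8 CPM in MR49F and 18.3, 26.8 and 23.9 CPM in C4-2, against 0.961, 0.682 and 0.276 CPM in LNCaP. ACOX2 had 11.9, 10.2 and 8.76 CPM in MR49F and 31.9, 25.3 and 28.6 CPM in C4-2, against 1.17, 0.568 and 0.414 CPM in LNCaP. C4-2 exceeded MR49F for both of these genes in every library. ST6GAL1 averaged 17.2 ± 0.917 CPM in MR49F and 12.5 ± 0.912 CPM in C4-2, against 1.31 ± 0.301 CPM in LNCaP (SD, n = 3 each). Proteases were also present. CTSC, the lysosomal protease that activates granule serine proteases, had 25.4, 24.8 and 19.2 CPM in MR49F and 70.9, 56.3 and 65.7 CPM in C4-2, against 2.14, 2.499 and 2.21 CPM in LNCaP. ADAMTS3, a procollagen protease, averaged 11.1 ± 1.27 CPM in MR49F and 39.1 ± 5.27 CPM in C4-2, against 0.774 ± 0.237 CPM in LNCaP. PSMD5, a chaperone of proteasome assembly, had 29.3, 32.2 and 28.4 CPM in MR49F and 39.0, 42.5 and 45.1 CPM in C4-2, against 3.31, 2.95 and 2.89 CPM in LNCaP.

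Signalling and surface genes made up the rest of the 15. GNAL, a stimulatory G protein alpha subunit, averaged 12.2 ± 2.64 CPM in MR49F and 10.7 ± 1.06 CPM in C4-2, against 0.608 ± 0.318 CPM in LNCaP, and its derivative libraries overlapped. CPLANE1, a ciliogenesis protein, had 20.03, 17.8 and 20.7 CPM in MR49F and 17.1, 31.9 and 28.8 CPM in C4-2, against 1.07, 0.909 and 1.10 CPM in LNCaP. C4-2 replicate 1 was the low C4-2 library. The GABA receptor subunit GABRE averaged 12.8 ± 2.25 CPM in MR49F and 19.2 ± 3.64 CPM in C4-2, against 1.06 ± 0.246 CPM in LNCaP. NECTIN3, a cell adhesion molecule, averaged 17.9 ± 2.25 CPM in MR49F and 28.6 ± 2.45 CPM in C4-2, against 1.51 ± 0.652 CPM in LNCaP. NPTX2, a secreted pentraxin of synapses, averaged 12.3 ± 1.86 CPM in MR49F and 28.8 ± 2.82 CPM in C4-2, against 1.87 ± 0.774 CPM in LNCaP. The tyrosine phosphatase PTPN20 averaged 11.3 ± 0.999 CPM in MR49F and 22.4 ± 3.62 CPM in C4-2, against 0.254 ± 0.268 CPM in LNCaP; it lies in a duplicated region of chromosome 10, so its counts are uncertain.

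Among genes above LNCaP by at least 2-fold in both lines, those with the highest counts were detected strongly in all lines. TENM1, a teneurin of neuronal contacts, had 1149, 1083 and 1112 CPM in MR49F and 169, 287 and 291 CPM in C4-2, against 55.5, 49.1 and 59.3 CPM in LNCaP. NUCB2, the precursor of nesfatin, had 579, 545 and 654 CPM in MR49F and 355, 331 and 342 CPM in C4-2, against 82.9, 74.5 and 77.2 CPM in LNCaP. In both genes MR49F was highest, C4-2 intermediate and LNCaP lowest, with no overlap. The metalloprotease ADAMTS1 had the other order, with 583, 571 and 591 CPM in MR49F, 1267, 1336 and 1429 CPM in C4-2 and 271, 278 and 294 CPM in LNCaP. BTG1, an antiproliferative gene, averaged 466 ± 6.35 CPM in MR49F and 369 ± 13.2 CPM in C4-2, against 160 ± 2.49 CPM in LNCaP. SLC44A4, a choline-like transporter, averaged 226 ± 24.1 CPM in MR49F and 327 ± 31.7 CPM in C4-2, against 75.3 ± 4.21 CPM in LNCaP.

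The gene furthest below LNCaP in both derivatives was ETV1 (ENSG00000006468, chromosome 7, 13891228 to 13991425), an ETS transcription factor whose locus is known to be rearranged in LNCaP cells. It had 0.109, 0.238 and 0 CPM in MR49F and 0.216, 0.506 and 0.143 CPM in C4-2, against 313, 300 and 287 CPM in LNCaP. The 3 MR49F libraries held 3 ETV1 counts together, all 6 derivative libraries were near 0, and the derivatives overlapped. The ratio of pooled, depth-scaled counts, here LNCaP over MR49F, was 2633 (95% interval 901 to 12771, counting error only), and the log2 fold change of C4-2 over LNCaP was -10.18. LINC01516, a long non-coding RNA, had 1 count in MR49F and 1 in C4-2, against 10.6, 12.04 and 11.2 CPM in the LNCaP libraries. The ratio of LNCaP over MR49F was 295 (52.6 to 11699) and that of LNCaP over C4-2 was 636 (113 to 25208). PAK1, a kinase of the actin cytoskeleton acting below Rac and Cdc42, had 0.219, 0.713 and 0.461 CPM in MR49F and 1.18, 1.64 and 1.43 CPM in C4-2, against 28.0, 23.5 and 29.1 CPM in LNCaP.

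**Figure D2:**
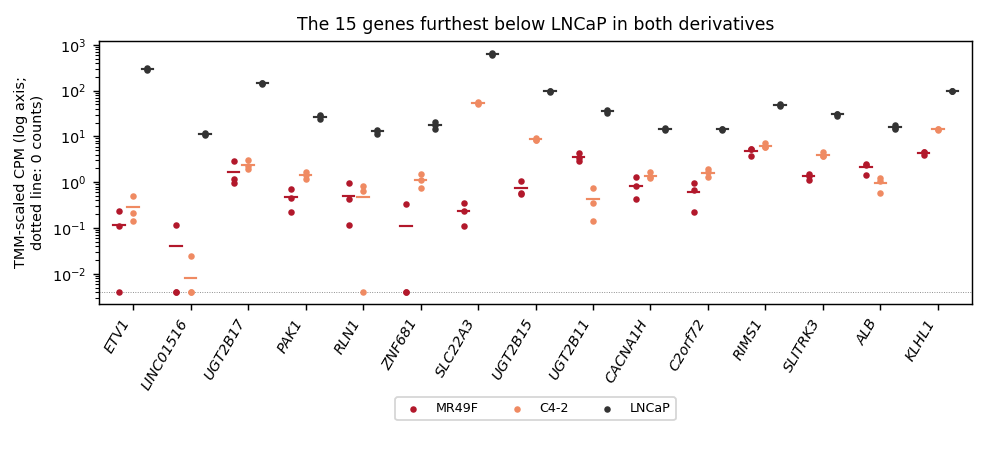
TMM-scaled CPM on a log axis of the 15 genes with the greatest shift below LNCaP in both derivatives among those averaging at least 10 CPM in LNCaP, in single libraries (points) with the mean of each line (bars). Points on the dotted line had 0 counts. For ETV1 the means were 0.116 CPM in MR49F, 0.288 CPM in C4-2 and 300.1 CPM in LNCaP, and for SLC22A3 the derivatives lay far apart from each other.

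Several further genes of this group have roles in transport, secretion or the synapse. SLC22A3, an organic cation transporter, had 0.109, 0.238 and 0.346 CPM in MR49F and 53.3, 50.6 and 57.1 CPM in C4-2, against 626, 603 and 671 CPM in LNCaP. The lines lay in 3 separate ranges. RIMS1, a synaptic vesicle scaffold, had 5.36, 5.34 and 3.80 CPM in MR49F and 5.88, 7.09 and 5.72 CPM in C4-2, against 46.1, 50.9 and 48.7 CPM in LNCaP. KLHL1, an actin-binding kelch protein of neurons, averaged 4.35 ± 0.377 CPM in MR49F and 14.4 ± 0.547 CPM in C4-2, against 97.5 ± 1.36 CPM in LNCaP. SLITRK3, a synaptic adhesion protein, averaged 1.34 ± 0.228 CPM in MR49F and 3.98 ± 0.503 CPM in C4-2, against 30.1 ± 1.47 CPM in LNCaP. CACNA1H, a T-type calcium channel, averaged 0.846 ± 0.415 CPM in MR49F and 1.40 ± 0.206 CPM in C4-2, against 14.4 ± 0.576 CPM in LNCaP. RLN1, a relaxin hormone, averaged 0.501 ± 0.421 CPM in MR49F and 0.483 ± 0.428 CPM in C4-2, against 12.8 ± 1.29 CPM in LNCaP, and its near-identical neighbour RLN2 makes that count uncertain. ALB, which encodes serum albumin of the liver, averaged 2.11 ± 0.602 CPM in MR49F and 0.965 ± 0.356 CPM in C4-2, against 15.7 ± 1.62 CPM in LNCaP. Of the 5 markers of other lineages, SFTPB and DES were at 0 in every line. The liver marker AFP averaged 0.0365 CPM in MR49F and 0.0240 CPM in C4-2, against 0.350 CPM in LNCaP, and the gut marker CDX2 averaged 0.153 CPM in MR49F and 1.13 CPM in C4-2, against 0.0459 CPM in LNCaP. AFP had the same side as ALB and CDX2 did not, and the part of other cells in the ALB level was not tested. The open reading frame gene C2orf72 averaged 0.620 ± 0.371 CPM in MR49F and 1.63 ± 0.329 CPM in C4-2, against 14.5 ± 0.478 CPM in LNCaP.

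The genes with the highest counts among those at least 2-fold below LNCaP included junction, trafficking and signalling genes. DSC2, a desmosomal cadherin, had 68.5, 65.6 and 76.5 CPM in MR49F and 82.3, 105 and 90.0 CPM in C4-2, against 470, 500 and 541 CPM in LNCaP. CLTC, the clathrin heavy chain of coated vesicles, had 411, 439 and 443 CPM in MR49F and 339, 427 and 385 CPM in C4-2, against 870, 889 and 861 CPM in LNCaP. IGF2R, the receptor that clears IGF2 and sorts lysosomal enzymes, had 300.2, 336 and 290 CPM in MR49F and 230, 297 and 280 CPM in C4-2, against 638, 662 and 639 CPM in LNCaP. For CLTC and IGF2R the derivatives overlapped and lay at roughly the same distance from LNCaP. MYCBP2, a ubiquitin ligase of axons, averaged 104 ± 6.83 CPM in MR49F and 173 ± 47.3 CPM in C4-2, against 578 ± 18.8 CPM in LNCaP. DGKH, a diacylglycerol kinase, averaged 35.7 ± 2.11 CPM in MR49F and 119 ± 36.1 CPM in C4-2, against 320 ± 8.03 CPM in LNCaP. In both, C4-2 replicate 1 was the lowest C4-2 library. DSEL, an epimerase of dermatan sulfate, averaged 188 ± 4.94 CPM in MR49F and 53.1 ± 5.33 CPM in C4-2, against 497 ± 23.8 CPM in LNCaP.

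The promoters of 4 genes are shown because the results turn on them: the 2 genes furthest above LNCaP among those with at least 10 CPM in each derivative, the gene furthest below, and JAG1, the Notch ligand furthest from LNCaP among those in the set. Each covers 250 bases before to 50 after a RefSeq gene start on GRCh38.p14, printed 5′ to 3′ on the gene's strand, with CpG dinucleotides in capitals. TRIB2 is at chr2:12716686-12716985 (plus strand), NNT at chr5:43602425-43602724 (plus), ETV1 at chr7:13990653-13990952 (minus) and JAG1 at chr20:10673950-10674249 (minus).
TRIB2: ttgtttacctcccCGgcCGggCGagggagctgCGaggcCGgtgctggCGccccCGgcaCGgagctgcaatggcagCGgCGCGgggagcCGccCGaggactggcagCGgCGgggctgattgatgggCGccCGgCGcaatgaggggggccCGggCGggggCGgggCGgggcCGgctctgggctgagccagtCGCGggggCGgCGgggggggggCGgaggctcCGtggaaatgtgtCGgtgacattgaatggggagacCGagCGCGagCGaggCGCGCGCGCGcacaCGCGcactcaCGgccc
NNT: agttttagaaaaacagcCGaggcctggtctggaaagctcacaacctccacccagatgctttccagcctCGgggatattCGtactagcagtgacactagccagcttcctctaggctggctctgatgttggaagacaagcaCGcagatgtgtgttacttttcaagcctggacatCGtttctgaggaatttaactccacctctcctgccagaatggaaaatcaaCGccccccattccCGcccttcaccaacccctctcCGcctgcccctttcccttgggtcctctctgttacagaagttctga
ETV1: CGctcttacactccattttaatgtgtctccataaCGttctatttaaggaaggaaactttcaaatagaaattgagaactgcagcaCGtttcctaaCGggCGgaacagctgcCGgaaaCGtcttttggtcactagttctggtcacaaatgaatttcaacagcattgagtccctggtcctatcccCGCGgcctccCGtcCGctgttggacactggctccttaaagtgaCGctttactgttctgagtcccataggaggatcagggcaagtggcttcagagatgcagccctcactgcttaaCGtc
JAG1: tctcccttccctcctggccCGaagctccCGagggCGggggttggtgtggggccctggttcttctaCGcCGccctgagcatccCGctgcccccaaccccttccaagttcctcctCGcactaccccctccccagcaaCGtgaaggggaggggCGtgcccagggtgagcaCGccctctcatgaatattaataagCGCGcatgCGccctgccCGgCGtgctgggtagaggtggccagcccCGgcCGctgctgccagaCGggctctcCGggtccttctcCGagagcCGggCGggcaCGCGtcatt
The number of CpG dinucleotides was 42 for TRIB2, 8 for NNT, 13 for ETV1 and 24 for JAG1, while the median was 27 for tested protein-coding genes with a promoter in the RefSeq table and 14 for all 27305 promoters there. The hexamer AGAACA, known from steroid receptor elements, and its reverse complement TGTTCT were searched on both strands. A match was found 1 time in the ETV1 window and in none of the other 3, and a match was held by 8.76% of the promoters of tested genes and 14.9% of all promoters of this length. A match is a run of letters and not a binding site.

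Androgen response genes stood mostly on the upper side of LNCaP or near it. Of 29 tested, 14 (48.3%) were above LNCaP in all derivative libraries and 0 below (10 and 1 with library size alone as the scaling), while over all tested genes 11.3% were above and 10.7% below. The list's median joint log2 fold change was 0.62, that of all tested genes -0.003. TMPRSS2, a transmembrane serine protease under androgen control, had 592, 617 and 572 CPM in MR49F and 236, 218 and 232 CPM in C4-2, against 68.8, 74.9 and 71.3 CPM in LNCaP. PMEPA1, an androgen-induced inhibitor of TGF-beta signalling, had 713, 747 and 739 CPM in MR49F and 238, 213 and 220 CPM in C4-2, against 115, 114 and 104 CPM in LNCaP. AZGP1, a secreted zinc-binding glycoprotein, had 54.4, 52.97 and 48.6 CPM in MR49F and 468, 337 and 376 CPM in C4-2, against 25.4, 29.2 and 26.9 CPM in LNCaP. MR49F was the highest line for TMPRSS2 and PMEPA1, and C4-2 for AZGP1. The kallikrein KLK4 averaged 1.21 above LNCaP in MR49F and 0.68 in C4-2 on the log2 scale. Among cofactor genes, GRHL2, an epithelial transcription factor, was above LNCaP (joint log2 fold change 0.86, SE 0.065), and the co-activators NCOA2 (-0.90, SE 0.096) and NCOA1 (-0.54, SE 0.090) and the homeobox factor HOXB13 (-0.37, SE 0.066) were below.

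Of 18 tested steroid-converting enzymes, 0 were above LNCaP and 5 (27.8%) below. All 5 were UGT2B genes, which encode liver and prostate enzymes that couple glucuronic acid to androgens and other substrates. UGT2B17 (ENSG00000197888, chromosome 4, 68537184 to 68568527) had 1.204, 0.950 and 2.88 CPM in MR49F and 1.97, 2.28 and 3.00 CPM in C4-2, against 137, 145 and 150 CPM in LNCaP. UGT2B15 had 0.547, 1.07 and 0.576 CPM in MR49F and 9.25, 8.48 and 8.16 CPM in C4-2, against 99.97, 94.1 and 99.1 CPM in LNCaP. UGT2B11 had 4.38, 2.85 and 3.46 CPM in MR49F and 0.360, 0.759 and 0.143 CPM in C4-2, against 35.7, 37.3 and 32.4 CPM in LNCaP. The derivatives overlapped for UGT2B17, while C4-2 was the higher derivative for UGT2B15 and MR49F for UGT2B11. UGT2B10 had 2 counts in the 3 MR49F libraries together, a ratio of LNCaP over MR49F of 85.7 (95% interval 23.3 to 713). These genes are close copies of each other on chromosome 4, so reads could have been split between them or dropped. The 6 neighbouring tested genes there, TMPRSS11E, UGT2B17, UGT2B15, UGT2B10, UGT2B11 and UGT2B28, were all below LNCaP, with a median joint log2 fold change of -5.07.

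Of 7 tested Notch receptors and ligands, 1 was above LNCaP in both derivatives and 2 below. JAG1 (ENSG00000101384), a ligand whose promoter is printed above, had 28.998, 30.6 and 29.5 CPM in MR49F and 18.5, 16.3 and 18.5 CPM in C4-2, against 103, 98.0 and 113 CPM in LNCaP. All derivative libraries were well under LNCaP and MR49F lay above C4-2 (log2 difference MR49F over C4-2 0.73, edgeR adjusted p = 2.64e-06). JAG2, another ligand, had 65.8, 70.2 and 69.4 CPM in MR49F and 65.1, 53.8 and 76.6 CPM in C4-2, against 77.8, 77.3 and 79.1 CPM in LNCaP. C4-2 replicate 3 came within 1 CPM of LNCaP, so JAG2 lay at the edge of the rule. DLL3, an inhibitory ligand, had 10.1, 9.74 and 8.07 CPM in MR49F and 9.58, 6.58 and 7.58 CPM in C4-2, against 6.30, 6.25 and 6.203 CPM in LNCaP. With library size alone as the scaling, 0 of the 7 were above and 3 below. Among 6 Notch effectors, NRARP, a feedback inhibitor, was below LNCaP (joint log2 fold change -0.66, SE 0.13). HEY1, a repressor downstream of the receptor, was above, at 2.21 ± 1.01 CPM in MR49F and 2.67 ± 0.542 CPM in C4-2, against 0.743 ± 0.479 CPM in LNCaP. Of 34 genes for processing and cofactors, 4 were above and 4 below, near the shares of all genes. The sheddase ADAM17, which cuts Notch at the surface, was above (0.43, SE 0.087), and the nuclear co-activators MAML3 (-1.03, SE 0.10) and EP300 (-0.56, SE 0.091) and the repressor SPEN (-0.48, SE 0.088) were below.

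Lipid, secretory and lysosomal genes lay above LNCaP in larger shares than the 11.3% of all tested genes. Of 24 genes of cholesterol synthesis and uptake, 10 (41.7%) were above and 0 below. INSIG1, the sterol-sensing brake on SREBP, had 300.5, 278 and 311 CPM in MR49F and 347, 359 and 330 CPM in C4-2, against 106, 124 and 123.1 CPM in LNCaP. Squalene synthase FDFT1 had 409, 393 and 365 CPM in MR49F and 591, 536 and 545 CPM in C4-2, against 255, 288 and 278 CPM in LNCaP. The sterol oxidase MSMO1 (joint log2 fold change 0.53, SE 0.066) and the sterol isomerase EBP (0.61, SE 0.092) differed by less. Of 24 fatty acid genes, 6 were above and 1 below. The elongase of polyunsaturated fatty acids ELOVL5 had 563, 570 and 620 CPM in MR49F and 1058, 1143 and 1128 CPM in C4-2, against 378, 392.4 and 400.2 CPM in LNCaP. ELOVL7 was above as well, with MR49F the higher derivative (joint 0.89, SE 0.073), and so was the acyl-CoA synthetase ACSL1 (0.86, SE 0.064). ELOVL6, which elongates saturated chains, was the gene below (-0.76, SE 0.073).

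Of 25 genes of the unfolded protein response and endoplasmic reticulum folding, 11 (44.0%) were above and 1 below. The folding factors were DNAJB9 (joint log2 fold change 0.96, SE 0.094), MANF (0.74, SE 0.086) and the disulfide isomerase PDIA6 (0.62, SE 0.066). PDIA6 had 645, 640 and 634 CPM in MR49F and 566, 491 and 516 CPM in C4-2, against 357, 379 and 391.8 CPM in LNCaP. CHAC1, a glutathione-degrading gene of the stress branch, was below (-0.88, SE 0.17), so the list did not lie on a single side. Of 56 autophagy and lysosome genes, 18 (32.1%) were above and 2 below. Beside CTSC, the cathepsin CTSF had 49.5, 47.5 and 46.2 CPM in MR49F and 84.9, 65.8 and 74.7 CPM in C4-2, against 18.3, 18.1 and 20.1 CPM in LNCaP. NPC2, a lysosomal carrier of cholesterol, had 68.4, 66.2 and 58.4 CPM in MR49F and 88.6, 59.6 and 72.5 CPM in C4-2, against 33.5, 34.3 and 30.3 CPM in LNCaP. TFEB, a transcription factor of lysosomal genes, was above by 1.16 (SE 0.17). With library size alone as the scaling, the counts above and below became 8 and 1 for cholesterol genes, 9 and 2 for the folding list and 14 and 4 for the lysosome list.

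**Figure D3:**
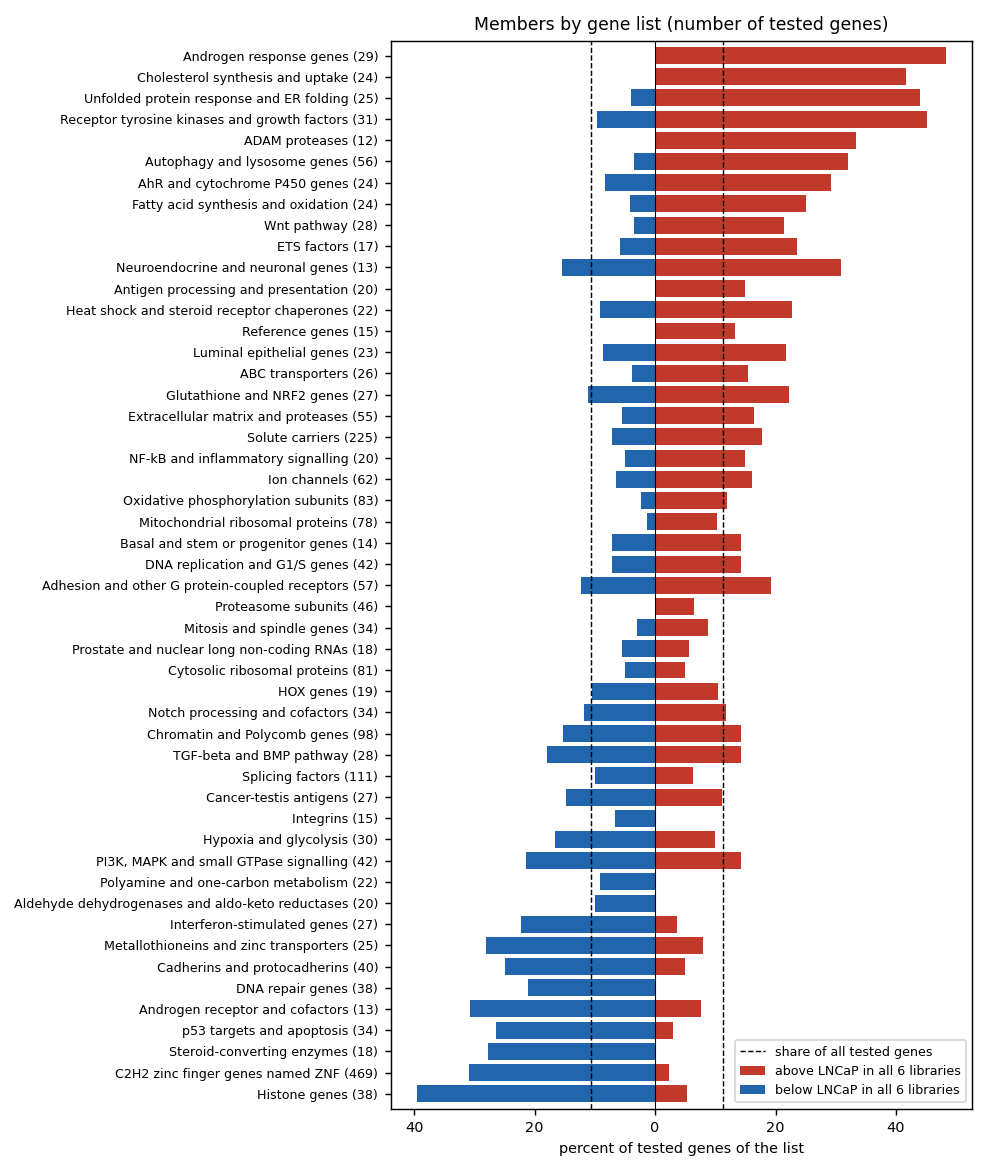
Share of the tested genes of each list with at least 10 tested genes that lay above LNCaP in all 6 derivative libraries (bars to the right) or below (bars to the left). Dashed lines mark the shares over all tested genes, 11.3% above and 10.7% below. The androgen response, folding, cholesterol and growth factor lists extend furthest to the right, and histone and zinc finger lists furthest to the left.

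Receptor tyrosine kinases and growth factors were above LNCaP in 14 of 31 cases (45.2%) and below in 3 (9.68%). Over all tested genes the shares were 11.3% above and 10.7% below. IGFBP3, a carrier of insulin-like growth factors, had 92.7, 94.4 and 89.9 CPM in MR49F and 296, 247 and 303 CPM in C4-2, against 30.8, 35.3 and 34.5 CPM in LNCaP. PDGFA, a platelet-derived growth factor chain, had 6.02, 7.96 and 6.45 CPM in MR49F and 10.6, 8.73 and 9.44 CPM in C4-2, against 1.60, 2.73 and 1.93 CPM in LNCaP. NRP1, a co-receptor of VEGF and semaphorins, was below, with 108 CPM in each MR49F library and 112, 125 and 126 CPM in C4-2, against 250, 265 and 264 CPM in LNCaP. In PI3K, MAPK and small GTPase signalling, 6 of 42 genes (14.3%) were above and 9 (21.4%) below. RHOU, an atypical small GTPase, had 173, 195 and 211 CPM in MR49F and 53.3, 60.9 and 55.5 CPM in C4-2, against 26.6, 31.5 and 23.8 CPM in LNCaP. Of the Ras pathway inhibitors in that list, SPRY2 and SPRED1 (joint log2 fold change 0.79, SE 0.13) were above. SPRY1 (-1.19, SE 0.13) and SPRY4 were below.

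In the Wnt list 6 of 28 genes (21.4%) were above and 1 (3.57%) below, against 11.3% and 10.7% of all tested genes. WNT5A, a ligand of the branch that does not use beta-catenin, had 68.7, 66.3 and 73.7 CPM in MR49F and 18.1, 23.2 and 20.9 CPM in C4-2, against 6.73, 8.18 and 7.03 CPM in LNCaP. LEF1, the nuclear partner of beta-catenin, had 12.5, 11.8 and 14.3 CPM in MR49F and 8.81, 11.9 and 9.73 CPM in C4-2, against 2.67, 2.61 and 2.34 CPM in LNCaP. The receptors FZD7 (joint log2 fold change 0.97, SE 0.19) and FZD6 (0.72, SE 0.071) were above too. In the TGF-beta and BMP list 4 of 28 (14.3%) were above and 5 (17.9%) below. LTBP1, which stores latent TGF-beta in the matrix, was above (1.64, SE 0.18), as was the receptor TGFBR1 (0.40, SE 0.083). The BMP mediator SMAD9 (-1.10, SE 0.095) and the inhibitory SMAD7 (-0.66, SE 0.13) were below.

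The lists of stress response, DNA repair and histone genes held more genes below LNCaP than above it. Of 34 genes of stress response and apoptosis, 9 (26.5%) were below and 1 (2.94%) above, against 10.7% and 11.3% of all tested genes. SESN1, a stress-induced inhibitor of mTORC1, had 42.8, 42.5 and 41.96 CPM in MR49F and 48.5, 53.3 and 53.5 CPM in C4-2, against 111, 111 and 117 CPM in LNCaP. Its relative SESN2 (joint log2 fold change -0.71, SE 0.096) and the Akt inhibitor PHLDA3 (-1.59, SE 0.12) were below as well. Of 38 DNA repair genes, 8 (21.1%) were below and 0 above. The mismatch repair gene MSH6 had 49.1, 57.8 and 57.2 CPM in MR49F and 60.7, 73.6 and 61.7 CPM in C4-2, against 89.9, 93.4 and 92.8 CPM in LNCaP. The end-joining ligase LIG4 (-0.81, SE 0.099) and the BRCA2 partner PALB2 (-0.34, SE 0.086) lay below by less than 2-fold. With library size alone, 15 of the 38 were below.

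Of 38 histone genes, 15 (39.5%) were below and 2 (5.26%) above, against 10.7% and 11.3% of all tested genes. H1-2, a linker histone, had 98.7, 89.1 and 83.8 CPM in MR49F and 106, 84.0 and 84.8 CPM in C4-2, against 144, 152 and 153 CPM in LNCaP. H2BC11 (joint log2 fold change -1.09, SE 0.12) and H3C10 (-0.72, SE 0.10) were below too, and H2BC8 was near 0 in C4-2 alone, at 4.38, 4.51 and 3.80 CPM in MR49F and 0.336, 0.127 and 0 CPM in C4-2, against 9.72, 9.32 and 10.9 CPM in LNCaP. Most mRNAs of replication histones carry no poly(A) tail and these genes are near-identical copies, so poly(A) libraries count them poorly. The 2 genes above were the variants H2AZ1 and H2AZ2. The cell cycle lists lay close to the background, with 6 of 42 replication genes above and 3 below, and 3 of 34 mitosis genes above and 1 below. CDK1, the mitotic kinase, had 635, 612 and 688 CPM in MR49F and 629, 671 and 638 CPM in C4-2, against 526, 537 and 565 CPM in LNCaP. With library size alone the replication list had 5 above and 7 below.

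Interferon-stimulated genes were below LNCaP in 6 of 27 cases (22.2%) and above in 1 (3.7%), against 10.7% and 11.3% of all tested genes. IFIT1, a sensor of viral RNA, had 0.985, 1.43 and 2.42 CPM in MR49F and 3.87, 2.40 and 4.29 CPM in C4-2, against 9.19, 8.41 and 8.27 CPM in LNCaP. IFIT2 had 1.42, 1.43 and 1.15 CPM in MR49F and 4.44, 4.18 and 5.15 CPM in C4-2, against 10.8, 8.41 and 8.82 CPM in LNCaP. The antiviral gene SAMD9 was below in the same way (joint log2 fold change -2.08, SE 0.23). PARP14, a mono-ADP-ribosyltransferase, was the gene above, with 37.2, 35.0 and 38.6 CPM in MR49F and 40.04, 54.4 and 50.5 CPM in C4-2, against 13.7, 11.02 and 10.9 CPM in LNCaP. Of 20 antigen presentation genes, 3 (15%) were above and 0 below, among them B2M, the light chain of MHC class I. B2M had 544, 543 and 616 CPM in MR49F and 572, 447 and 519 CPM in C4-2, against 291, 292 and 304 CPM in LNCaP. In the NF-kB list 3 of 20 (15%) were above and 1 (5%) below, which became 1 above and 3 below with library size alone. In the wider list of immune cell markers, the T cell gene CD8A was the single gene tested and lay above LNCaP, at 1.27 ± 0.749 CPM in MR49F and 3.36 ± 0.478 CPM in C4-2, against 0.157 ± 0.0625 CPM in LNCaP, while the T cell markers CD3D and CD3E were at 0. The chemokine CXCL8 was the gene below, at 0, 0.119 and 0.576 CPM in MR49F and 3.89, 3.80 and 4.15 CPM in C4-2, against 11.3, 11.02 and 11.7 CPM in LNCaP, and the receptor IL6R was above (0.91, SE 0.073).

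Cadherins and protocadherins were below LNCaP in 10 of 40 cases (25%) and above in 2 (5%), against 10.7% and 11.3% of all tested genes. DSC2 was the member with the highest counts. PCDHGB5 had log2 fold changes over LNCaP of -0.78 in MR49F and -2.78 in C4-2, but clustered protocadherins share exons and their counts are uncertain. PCDH1 was above (joint log2 fold change 0.85, SE 0.098). Of 55 matrix and protease genes, 9 (16.4%) were above and 3 (5.45%) below. Those above included the collagen COL16A1 (2.2, SE 0.21), the protease ADAMTS17 (1.57, SE 0.18) and the fibulin FBLN2 (1.72, SE 0.19). COL1A1, a fibroblast collagen, was below, at 5.58, 5.82 and 5.76 CPM in MR49F and 15.6, 14.3 and 19.6 CPM in C4-2, against 27.7, 23.6 and 24.9 CPM in LNCaP. Of the other fibroblast markers PDGFRA was at 0 in every line and DCN was under 0.1 CPM. COL3A1 averaged 0.268 CPM in MR49F and 6.05 CPM in C4-2, against 1.78 CPM in LNCaP, and LUM averaged 1.91 CPM in MR49F and 0 CPM in C4-2, against 0.406 CPM in LNCaP. These markers did not share the order of COL1A1, and whether other cells contribute to the COL1A1 level was not tested. Of 12 ADAM proteases 4 (33.3%) were above and 0 below, with ADAM23 at 1.89 (SE 0.15). Among integrins 1 of 15 (6.67%) was below and 0 above. Among 6 mesenchymal regulators only TWIST1, an inducer of epithelial-mesenchymal transition, was in the set. TWIST1 had 1.53, 1.07 and 1.498 CPM in MR49F and 0.048, 0 and 0 CPM in C4-2, against 5.66, 6.25 and 5.38 CPM in LNCaP. Its ratio of LNCaP over C4-2 was 163 (95% interval 44.5 to 1362).

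The lineage lists were short, and the shares over all tested genes were 11.3% above and 10.7% below. Of 23 luminal epithelial genes 5 (21.7%) were above and 2 (8.7%) below. CD24, DPP4 and MUC1 were the 3 at least 2-fold above in both lines. The adhesion molecule EPCAM had 235, 225 and 239 CPM in MR49F and 194, 153 and 179 CPM in C4-2, against 147, 143 and 140 CPM in LNCaP. The claudin CLDN8 (joint log2 fold change -1.03, SE 0.14) was below. Of 14 basal and progenitor genes 2 (14.3%) were above, LY6E (1.38, SE 0.11) and the Polycomb gene BMI1 (0.68, SE 0.089), and 1 (7.14%) below, SOX4 (-0.29, SE 0.070). Of 13 neuroendocrine and neuronal genes 4 (30.8%) were above and 2 (15.4%) below. Beside GRIN3A, the factor ONECUT2 had 42.7, 38.5 and 38.5 CPM in MR49F and 29.7, 48.2 and 41.9 CPM in C4-2, against 24.6, 25.4 and 20.3 CPM in LNCaP. The neurofilament NEFL went the other way, at 2.52, 3.33 and 4.73 CPM in MR49F and 1.71, 2.28 and 1.86 CPM in C4-2, against 13.9, 13.1 and 13.4 CPM in LNCaP. Of 17 ETS factors 4 (23.5%) were above, among them ETS2 (0.89, SE 0.14), and ETV1 was the single gene below (5.88%).

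Solute carriers and ion channels lay above LNCaP more often than below, where 11.3% of all tested genes were above and 10.7% below. Of 225 solute carriers 40 (17.8%) were above and 16 (7.11%) below, and with library size alone the counts were 34 and 26. SLC36A1, a lysosomal amino acid transporter, had 91.4, 105 and 86.2 CPM in MR49F and 54.3, 64.5 and 70.3 CPM in C4-2, against 20.7, 20.9 and 21.2 CPM in LNCaP. SLC10A7, a regulator of calcium and glycosylation, was above by 1.2 (SE 0.081). Of 62 ion channels 10 (16.1%) were above and 4 (6.45%) below, and with library size alone 9 and 5. The epithelial calcium channel TRPV6 had 59.2, 58.2 and 54.4 CPM in MR49F and 85.9, 78.4 and 88.9 CPM in C4-2, against 35.8, 37.3 and 36.0 CPM in LNCaP, while the calcium channel CACNA1H was far below. Of 57 adhesion and other G protein-coupled receptors 11 (19.3%) were above and 7 (12.3%) below, and with library size alone 9 and 8. The lysophosphatidic acid receptor LPAR3 had 2.95, 3.21 and 3.92 CPM in MR49F and 23.5, 24.4 and 22.9 CPM in C4-2, against 90.5, 89.1 and 87.3 CPM in LNCaP. Metallothioneins and zinc transporters were below in 7 of 25 cases (28%) and above in 2 (8%). MT2A, a metal-binding thionein, had 9.08, 12.4 and 8.53 CPM in MR49F and 20.2, 15.8 and 15.02 CPM in C4-2, against 30.0, 34.3 and 28.8 CPM in LNCaP, although MT genes are close copies and share reads.

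Metabolic and translation lists differed among themselves, where 11.3% of all tested genes were above LNCaP and 10.7% below. Of 27 glutathione and NRF2 genes 6 (22.2%) were above and 3 (11.1%) below. GCLC, the rate-limiting subunit of glutathione synthesis, had 45.2, 50.7 and 53.3 CPM in MR49F and 64.0, 76.0 and 73.0 CPM in C4-2, against 28.9, 26.2 and 27.4 CPM in LNCaP, and the quinone reductase NQO1 was above by 0.80 (SE 0.073). The peroxidase GPX4, which protects membrane lipids, was below by 0.45 (joint log2 fold change -0.45, SE 0.083). Of 24 genes of the aryl hydrocarbon receptor and cytochrome P450s, 7 (29.2%) were above and 2 (8.33%) below, with the target gene TIPARP at 0.69 (SE 0.12). Of 30 hypoxia and glycolysis genes 3 (10%) were above and 5 (16.7%) below. VEGFA had 75.8, 80.0 and 69.2 CPM in MR49F and 150, 146 and 167 CPM in C4-2, against 60.5, 62.6 and 60.8 CPM in LNCaP, and the glucose transporter SLC2A1 was below (-0.29, SE 0.078). Of 83 oxidative phosphorylation subunits 10 (12%) were above and 2 (2.41%) below, which became 4 and 5 with library size alone. Of 81 cytosolic ribosomal proteins 4 (4.94%) were on each side, and of 78 mitochondrial ones 8 (10.3%) were above and 1 (1.28%) below. Of 46 proteasome genes 3 (6.52%) were above and 0 below. Of 111 splicing genes 7 (6.31%) were above and 11 (9.91%) below, several of those below being HNRNPA1 pseudogenes that share reads with their parent. RBM24, a splicing regulator of muscle, had 42.2, 42.5 and 41.7 CPM in MR49F and 12.7, 17.0 and 12.9 CPM in C4-2, against 2.35, 3.29 and 1.79 CPM in LNCaP. Of 98 chromatin genes 14 (14.3%) were above and 15 (15.3%) below. The heterochromatin protein CBX5 was below, with 106, 117 and 105 CPM in MR49F and 204, 296 and 258 CPM in C4-2, against 348, 346 and 347 CPM in LNCaP.

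The remaining lists are given beside the shares of all tested genes, 11.3% above and 10.7% below. Of 26 ABC transporters 4 (15.4%) were above and 1 (3.85%) below, and of 22 chaperones 5 (22.7%) and 2 (9.09%). Of 27 cancer-testis antigens 3 (11.1%) were above and 4 (14.8%) below, and of 19 HOX genes 2 (10.5%) were on each side. Of 20 aldehyde dehydrogenases and aldo-keto reductases 0 were above and 2 (10%) below. Of 22 genes of polyamine and one-carbon metabolism 0 were above and 2 (9.09%) below. Of 7 tested fibroblast and endothelial markers 0 were above and 3 (42.9%) below, which were ACTA2, COL1A1 and VWF. Of 15 reference genes, B2M and YWHAZ (13.3%) were above and 0 below, and with library size alone 1 was above.

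The list with the most genes below LNCaP was that of C2H2 zinc finger genes named ZNF, many of which encode KRAB repressors that silence transposable elements. Of 469 tested, 145 (30.9%) were below and 11 (2.35%) above, with a median joint log2 fold change of -0.28. Those on chromosome 19 accounted for most, with 114 of 234 (48.7%) below and 2 above. On other chromosomes 31 of 235 (13.2%) were below and 9 above, and of 828 other genes on chromosome 19, 126 (15.2%) were below and 37 above. ZNF681 had 0.328, 0 and 0 CPM in MR49F and 0.745, 1.52 and 1.14 CPM in C4-2, against 17.6, 20.1 and 14.2 CPM in LNCaP. The 3 MR49F libraries held 3 counts of it together, a ratio of LNCaP over MR49F of 153 (95% interval 52.0 to 745). ZNF677 had 8.32, 10.9 and 10.1 CPM in MR49F and 4.76, 6.71 and 8.01 CPM in C4-2, against 39.8, 42.4 and 41.2 CPM in LNCaP. ZNF665 was below by 3.29 on the log2 scale (joint log2 fold change -3.29, SE 0.19). Such genes lie in tandem arrays of similar copies and their counts can share reads.

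The set was unevenly spread over the genome. On chromosome 13, 58 of 273 tested genes (21.2%) were above and 48 (17.6%) below. Chromosomes 8 (18.7% above, 6.10% below), X (17.1% and 5.05%) and 7 (16.8% and 5.48%) held more genes above. Chromosomes 19 (3.67% above, 22.6% below), 22 (1.49% and 20.1%) and 16 (3.79% and 16.3%) held more below. The order of the numbers above and below on these chromosomes was the same with library size alone as the scaling, except on chromosome 13, where 54 were above and 60 below. Copy number was not measured here, and its part in these shares was not tested.

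**Figure D4:**
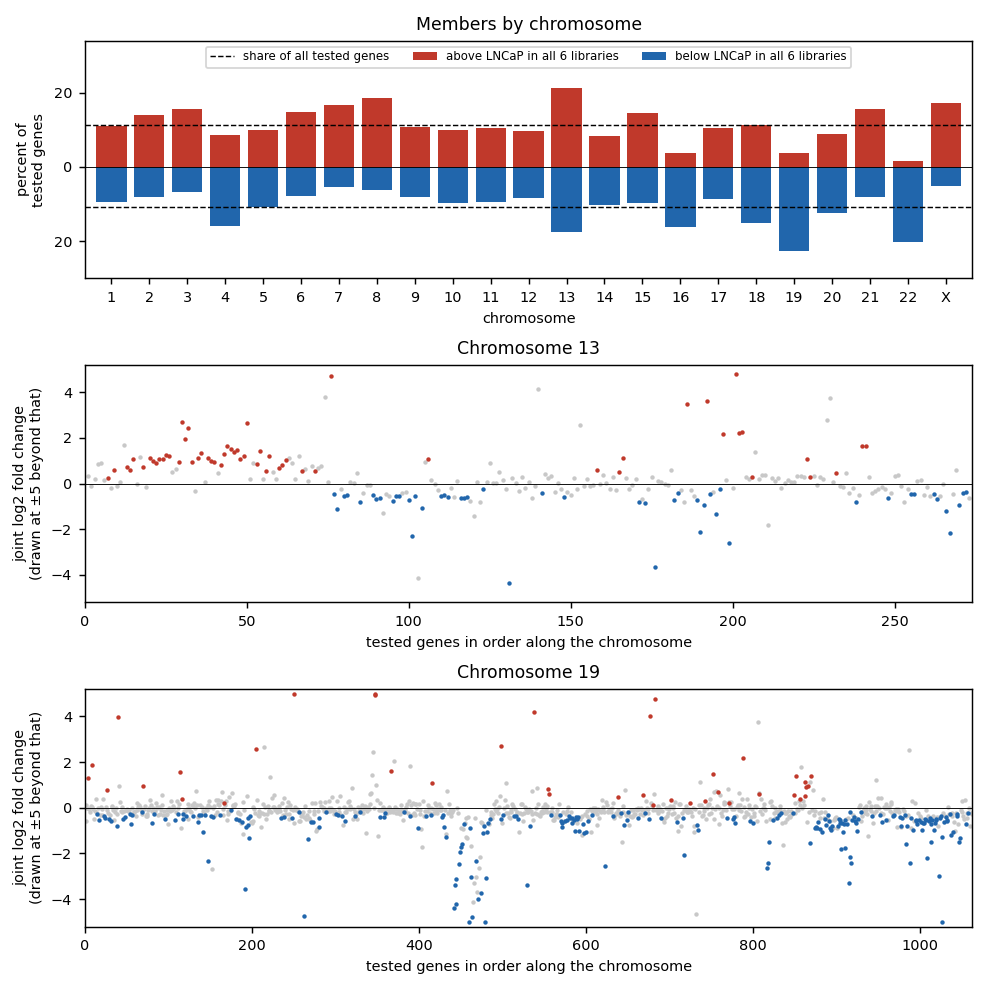
Top, percent of the tested genes of each chromosome above LNCaP (bars up) or below (bars down) in all 6 derivative libraries, with dashed lines at 11.3% and 10.7%. Middle and bottom, joint log2 fold change of every tested gene in order along chromosomes 13 and 19, coloured as above, with genes outside the set in grey. On chromosome 13 the genes at the left end are mostly above LNCaP, with 18 of 21 in the densest window, and on chromosome 19 a block at the right end lies below, also with 18 of 21.

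The longest run was 10 tested genes on chromosome 19 (52702813 to 53037898, GENCODE 29 coordinates), all zinc finger loci bar 1 unnamed gene and all below LNCaP, with a median joint log2 fold change of -0.70. The single values were -1.81 to -0.50. ZNF320 averaged 35.1 CPM in MR49F and 52.5 CPM in C4-2, against 67.7 CPM in LNCaP, ZNF468 averaged 29.2, 36.7 and 51.8 CPM in the same order of lines, and ZNF28 averaged 30.4, 31.6 and 44.2 CPM. The pseudogene ZNF702P averaged 2.40 CPM in MR49F and 1.95 CPM in C4-2, against 7.49 CPM in LNCaP. In the densest window of 21 tested genes there (52702813 to 53444670), 18 were below LNCaP.

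The next run was 9 genes on chromosome 13 (26557703 to 27926231), all above LNCaP with a median joint log2 fold change of 1.41. GTF3A, a transcription factor of 5S ribosomal RNA genes, had 283, 256 and 302 CPM in MR49F and 436, 383 and 345 CPM in C4-2, against 123.4, 122 and 129 CPM in LNCaP. POLR1D, a subunit shared by RNA polymerases I and III, averaged 186 CPM in MR49F and 196 CPM in C4-2, against 83.5 CPM in LNCaP. MTIF3, a mitochondrial translation initiation factor, averaged 51.5 CPM in MR49F and 81.9 CPM in C4-2, against 23.1 CPM in LNCaP. The deubiquitinase USP12, which acts on the androgen receptor, averaged 53.4 CPM in MR49F and 79.2 CPM in C4-2, against 26.7 CPM in LNCaP. The ribosomal protein gene RPL21, which has many pseudogenes, the GTPase RASL11A, the actin regulator WASF3, the ubiquitin ligase LNX2 and the homeobox gene PDX1 completed the run, with joint log2 fold changes of 0.82 to 2.64. A further 7 genes at 20973032 to 21604214 on this chromosome were above with a median of 1.09. Among them the Hippo kinase LATS2 averaged 15.5 CPM in MR49F and 26.1 CPM in C4-2, against 9.04 CPM in LNCaP, and the palmitoyltransferase ZDHHC20 averaged 176 CPM in MR49F and 393 CPM in C4-2, against 110 CPM in LNCaP. MICU2, which gates the mitochondrial calcium uniporter, averaged 127 CPM in MR49F and 215 CPM in C4-2, against 71.5 CPM in LNCaP. In the densest window of 21 tested genes (23328826 to 27744237), 18 were above LNCaP. A run of 7 genes below LNCaP on chromosome 6 (159969099 to 161117385) held IGF2R and SLC22A3.

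By gene type, 12.5% of 12373 protein-coding genes were above and 11.1% below, against 7.41% and 10.1% of 1660 long non-coding RNAs and 4.63% and 8.03% of 1145 pseudogenes. MALAT1, a nuclear long non-coding RNA, had 2427, 1933 and 2070 CPM in MR49F and 2970, 2829 and 3334 CPM in C4-2, against 1629, 1423 and 1708 CPM in LNCaP, and TUG1 was below (joint log2 fold change -0.38, SE 0.072). Shares differed little by level, from 9.27% above and 11.5% below among genes under 1 CPM to 13.5% and 11.5% among those over 100 CPM. The median GC content of the longest annotated transcript was 48.0% in genes above LNCaP and 46.3% in genes below, and 47.9% in all tested genes. The median transcript length was 3414 bases above and 4031 bases below, and 3274 bases over all tested genes. Promoter content is given, with no test, only for protein-coding genes with a promoter in the RefSeq table. These were 79.1% of the protein-coding genes above LNCaP, 83.7% of those below and 81.6% of all tested. The median CpG number was 28 above, 25 below and 27 over all tested genes. A hexamer match was held by 9.41%, 9.66% and 8.76% in the same order. Among genes at least 2-fold apart in both lines, the median CpG number was 27 above and 14 below. A match was held by 28 (10.3%) and 24 (20.9%) of them. Only 78.2% and 72.8% of the protein-coding genes in these smaller groups had a promoter there.

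The derivatives were compared with each other by a test that does not use LNCaP as a contrast, although the same 6 libraries had entered the rule. Of all tested genes 61.0% differed between MR49F and C4-2 at an edgeR adjusted p under 0.05, 29.9% higher in MR49F and 31.1% lower. Of the 1737 genes above LNCaP, 916 (52.7%) differed, 402 higher in MR49F and 514 lower. Of the 1654 below, 730 (44.1%) differed, 339 higher in MR49F and 391 lower. Differences of over 2-fold were called for 295 genes above (17.0%) and 229 below (13.8%), against 18.6% of all tested genes. Because the rule asks both derivatives to lie on the same side of LNCaP, it can itself lower these shares. In 771 of the 1737 genes above and 846 of the 1654 below, the MR49F and C4-2 libraries overlapped. The same held for 5864 of all 15407 tested genes.

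**Figure D5:**
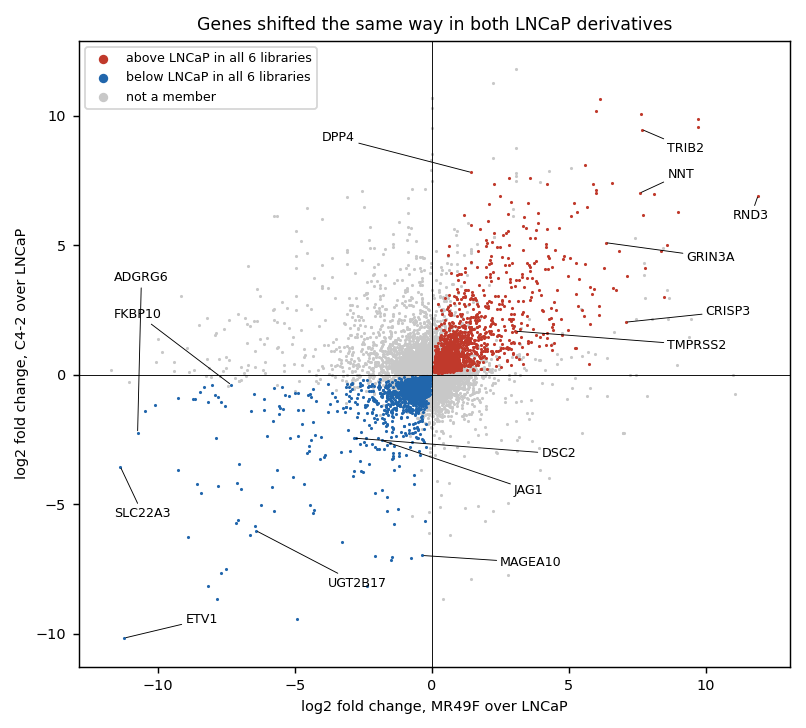
Log2 fold change of C4-2 over LNCaP (vertical) against MR49F over LNCaP (horizontal) for tested genes with a position on an autosome or X; both axes share the LNCaP libraries. Genes above LNCaP in all 6 libraries (red) and below (blue) fill opposite quadrants by construction. Fitted values of genes with few counts in a line, such as RND3 and ETV1, depend on the prior count of the fit. FKBP10 and MAGEA10 lie near an axis, since only 1 derivative was far from LNCaP.

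Among genes of the set, those that differed most between the derivatives lay at very unlike distances from LNCaP. The rule itself put both derivatives on the same side, and genes outside the set were not ranked here. RND3, an atypical small GTPase that reduces contractility, had 183, 191 and 202 CPM in MR49F and 5.96, 5.69 and 6.30 CPM in C4-2, against 0, 0.114 and 0 CPM in LNCaP. The LNCaP libraries held 1 count together, and the ratio of pooled counts was 4875 for MR49F over LNCaP (95% interval 875 to 192581) and 152 for C4-2 over LNCaP (27.0 to 6003). Between the derivatives the log2 difference was 5.01 (SE 0.11, edgeR adjusted p = 7.89e-19). CRISP3, a secreted protein of the prostate, had 905, 817 and 1004 CPM in MR49F and 28.6, 27.3 and 24.9 CPM in C4-2, against 7.26, 5.45 and 7.44 CPM in LNCaP (MR49F over C4-2 5.06, SE 0.11, adjusted p = 3.89e-19 by edgeR). PEG10, an imprinted gene of retrotransposon origin, had 127, 132 and 142 CPM in MR49F and 3.122, 3.80 and 3.58 CPM in C4-2, against 2.78, 2.499 and 2.21 CPM in LNCaP. C4-2 was barely above LNCaP there, with a log2 fold change of 0.40. RIPOR2, an inhibitor of RhoA, MAGEA10, a cancer-testis antigen, and the protocadherin PCDHB5 were below LNCaP by less than 2-fold in MR49F and close to silent in C4-2. RIPOR2 had 56.6, 57.8 and 60.9 CPM in MR49F and 0.672, 1.14 and 0.429 CPM in C4-2, against 95.2, 101 and 96.2 CPM in LNCaP. MAGEA10 averaged 49.6 ± 3.08 CPM in MR49F and 0.677 ± 0.512 CPM in C4-2, against 63.3 ± 3.65 CPM in LNCaP.

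The opposite pattern, with C4-2 far above MR49F, was found for DPP4, SLC22A3, ADGRG6, WDR72, LPAR6 and FKBP10. DPP4, a surface peptidase of luminal cells, had 4.27, 5.58 and 5.07 CPM in MR49F and 398, 411 and 410 CPM in C4-2, against 1.92, 1.59 and 1.93 CPM in LNCaP (MR49F over C4-2 -6.35, SE 0.11, edgeR adjusted p = 1.53e-20). It was the gene of these 6 that lay above LNCaP. ADGRG6, an adhesion receptor, had 0.438, 0.356 and 0.576 CPM in MR49F and 136, 186 and 190 CPM in C4-2, against 784, 798 and 819 CPM in LNCaP (-8.50, SE 0.20, edgeR adjusted p = 3.94e-18). FKBP10, a collagen-folding isomerase of the endoplasmic reticulum, had 2.63, 1.90 and 2.07 CPM in MR49F and 305, 235 and 269 CPM in C4-2, against 338, 360 and 371 CPM in LNCaP. C4-2 lay only slightly under LNCaP for FKBP10, by 0.40 (log2 fold change -0.40), and MR49F far under both. WDR72, an endocytic gene of tooth enamel formation, and LPAR6, a lysophosphatidic acid receptor, had 3 and 2 counts in the 3 MR49F libraries together. Their ratios of LNCaP over MR49F were 309 (105 to 1501) for WDR72 and 273 (75.2 to 2260) for LPAR6, while C4-2 averaged 17.5 ± 1.76 CPM and 11.9 ± 0.903 CPM, against 35.6 ± 3.74 CPM and 20.8 ± 0.450 CPM in LNCaP.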

How the data were processed

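The values used are counts per Ensembl gene of 9 poly(A) RNA libraries, deposited by the authors as whole numbers with no normalization. Per the labels a stranded TruSeq kit was sequenced as paired-end reads on a HiSeq2500. GRCh38.p12, HTSeq 0.6.1, TopHat2, edgeR 3.12.1 and FastQC 0.11.3 appear in the submitters' processing notes, with no order or role. The strand setting and annotation release were not given in the labels, so counts of overlapping, antisense and near-identical genes are uncertain. A further 3 columns match no sample title and were not used.

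Genes were filtered with filterByExpr by line, scaled by TMM and fitted with the robust quasi-likelihood model of edgeR 4.0.16 (R 4.3.3), with 1 mean per line and 6 residual degrees of freedom (common biological coefficient of variation 0.0817). The test of MR49F against C4-2 was adjusted by Benjamini-Hochberg over all 15407 genes. Standard errors are the absolute log2 fold change over the square root of F. Coordinates and gene types are from GENCODE 29 (57388 of 57992 IDs matched). Ratios of genes with 1 to 3 counts in a line carry exact 95% binomial intervals, which cover counting error only. The fit was tested on simulated data. The members and the 56 gene lists were chosen with earlier results of these data known. Named genes are, in each direction, the 15 with the largest smaller difference at 10 CPM or more and the 8 with the highest CPM at 2-fold or more. Also named are up to 4 per list at 5 CPM or more, 6 in each direction of the derivative difference and those of the 3 longest runs. Others named belong to counts of 5 or fewer, to the marker lists or, for SPRY2 and SPRY4, to the Ras pathway inhibitors. These others were chosen after their values were seen. Alternatives were RLE, upper quartile and library-size scaling, other count filters, a wider gap, DESeq2 1.42.0, voom of limma 3.58.1, a test against 1.5-fold, a replicate block, thinning of C4-2 replicate 1 and each library left out.
Some genes of the lists are not reported here.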

Additional observations from a re-analysis of the deposited data

How the results depend on the processing

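The number of genes on each side of LNCaP stayed within 1.5 times the reported 1737 and 1654 under every scaling and count filter tried, and with each library left out it was 1850 to 2027 above and 1763 to 2083 below. At least 2-fold apart in both lines were 434 to 463 above and 236 to 263 below with a library left out, and 609 above and 413 below without a count filter. With library size alone as the scaling, 35.9% of the set lay above LNCaP, against 51.2% with TMM (1288 above and 2297 below), and the median gene moved by -0.08. A gap of at least 1.5-fold left 379 above and 243 below. For MR49F against C4-2, a test against a 1.5-fold change left 154 higher and 182 lower of the genes above LNCaP and 100 higher and 150 lower of those below. The test without that 1.5-fold limit gave 402, 514, 339 and 391 in the same order. With a library left out, the counts of the test without the limit were 369 to 513, 481 to 601, 315 to 431 and 346 to 491. Samples with the same replicate number did not deviate together (r -0.064 to 0.051, other pairs -0.092 to 0.10). The fit with a replicate block, also without the limit, gave 394, 506, 336 and 386. The direction of MR49F over C4-2 reversed for LINC01516 without MR49F replicate 2 (-1.46, range with a library left out -1.46 to 1.82), and for RLN1 without MR49F replicate 3 (0.03) and without C4-2 replicate 1 (0.54, range -1.21 to 0.54) and with C4-2 replicate 1 thinned (0.28), genes of few counts in either derivative whose difference was not called; the cause was not tested. Genes under about 1 CPM rest on few counts in all libraries but C4-2 replicate 1.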
